A study of Mus musculus with 9 samples.

Results

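Genes of tumor necrosis factor (TNF) signalling and of the death programs downstream of its receptors were followed in kidneys of mice with hyperuricemic nephropathy (HN). They comprised the ligand gene Tnf, the receptor genes Tnfrsf1a, Tnfrsf1b and Fas, the caspase genes Casp8 and Casp9, and the necroptosis genes Ripk3 and Mlkl. These 8 genes were taken by name from the 55385 genes of the table, in which each had a single row. The study tested whether pectolinarigenin (PEC), a plant flavonoid, relieves kidney injury in this model. Kidneys of male C57BL/6J mice were sequenced after selection of poly(A) RNA, with 3 mice in each of 3 groups and 1 library per mouse. The age of 8 to 10 weeks in the methods is that of the mice used to set up the model, and kidneys were taken at the end of the study. Control mice received neither inducer (replicates 2, 4 and 5). HN mice were given potassium oxonate, an inhibitor of uricase, at 2.4 g/kg together with adenine at 0.16 g/kg on alternate days over 4 weeks, with no drug (replicates 4, 8 and 12). PEC mice had the same induction and were treated with oral PEC at 25 mg/kg daily (replicates 1, 2 and 3). The labels call the control libraries HN mice in their titles and control in their disease state, and the disease state was followed. The PEC dose came from the methods of the study, since the labels give none. Because adenine itself forms crystals in the tubules, the model is not one of raised uric acid alone.

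TNF is a cytokine that binds TNFR1, the product of Tnfrsf1a, which is present on most cells and carries a death domain, and TNFR2, the product of Tnfrsf1b, which lacks one and is found largely on leukocytes and endothelium and, after injury, on tubules. Death receptors such as TNFR1 and FAS can activate caspase-8, while mitochondrial release of cytochrome c activates caspase-9 on a platform built by APAF1. When caspase-8 is held back, RIPK3 phosphorylates MLKL, which ruptures the plasma membrane in necroptosis, a form of cell death known from crystal injury of the kidney.

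Total counts ran from 57714111 to 81069646 reads per library. Mitochondrial transcripts took 12.9% to 16.3% of the counts in Control, 6.01% to 6.34% in HN and 10.3% to 13.7% in PEC libraries. Scaling by library totals alone, as in the FPKM values of the table, is affected by such shares. Levels are therefore given as TMM-scaled FPKM, FPKM recomputed after the trimmed mean of M values (TMM) had set the library sizes. Fold changes and tests came from edgeR on the counts of the 15508 genes whose FPKM averaged 0.5 or more. Calls of higher or lower required p of 0.05 or less after Benjamini-Hochberg adjustment over all of these genes. The choice of scaling mattered. With TMM, 48.8% of the calls of HN against Control were higher, against 83.8% with library totals alone, which moved the median log2 fold change of all genes from -0.01 to 0.51. The same share was 48.7% against 30.2% for PEC against HN, where the median moved from -0.01 to -0.23, and 49.5% against 70.9% for PEC against Control, where it moved from 0.01 to 0.31.

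In HN kidneys, 6 of the 8 genes were higher than in Control (Tnf, Tnfrsf1b, Ripk3, Mlkl, Tnfrsf1a and Casp8), whereas 24.4% of all tested genes were called higher. With edgeR, 0 of the 8 were lower, against 25.6% of all tested genes, and the count was also 0 at an unadjusted p of at most 0.05, with DESeq2 and with limma. The median log2 fold change was 1.46 over the 8 genes and -0.01 over all tested genes. PEC mice differed from HN mice in few of them. Casp8 alone was higher, where the background was 24.3%, Tnfrsf1b alone was lower, where it was 25.6%, and the median was -0.16 beside -0.01 over all genes. Counts of 1 in 8 do not exceed those shares. Against Control, PEC kidneys had 6 genes higher, with a background of 28.1%, and 0 lower by edgeR, with a background of 28.6%. At an unadjusted p of at most 0.05, with DESeq2 and with limma the count lower was again 0, and the median was 1.09 beside 0.01. All 8 genes passed the filter, but Tnf and Ripk3 passed through the HN and PEC libraries, since their Control means lay under 0.5. The comparisons share groups, so they are not independent of each other.

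**Figure D1:**
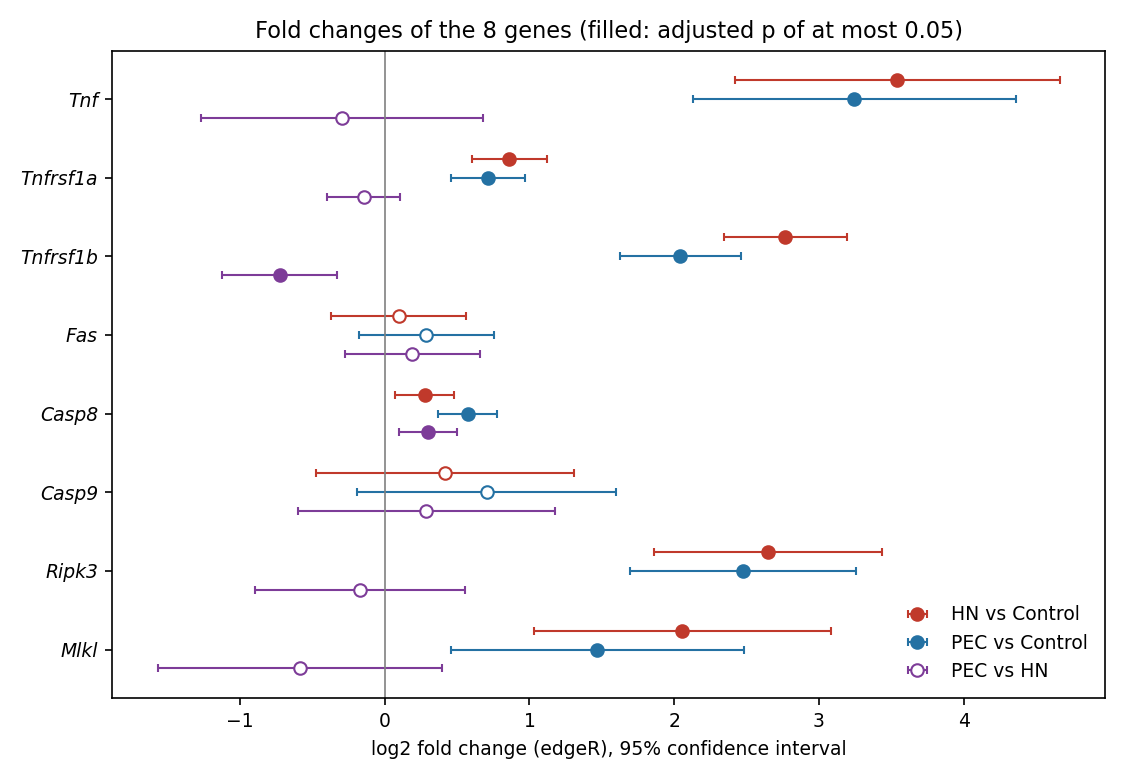
For the 8 genes, points give the log2 fold change from edgeR and bars its 95% confidence interval, in red for HN vs Control, blue for PEC vs Control and purple for PEC vs HN, and filled points have an adjusted p of at most 0.05. The intervals of Tnf, Tnfrsf1a, Tnfrsf1b, Casp8, Ripk3 and Mlkl against Control lie above 0 for both HN and PEC. Only those of Tnfrsf1b and Casp8 leave out 0 in PEC vs HN.

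The study called a gene changed at 1.5-fold or more with p of 0.05 or less, without saying in the text used here if p was adjusted. Taken as unadjusted, that rule was applied to the same edgeR fit. Under it, 5 of the 8 genes were higher in HN than in Control, Casp8 being lost, with backgrounds of 19.5% higher and 18.3% lower. In PEC against HN, Tnfrsf1b alone was lower, with backgrounds of 17.7% higher and 19% lower. Against Control, 5 genes were higher in PEC, again without Casp8, with backgrounds of 22.5% higher and 20.8% lower.

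Tnf (ENSMUSG00000024401, chr17:35199381-35202007, minus strand, GRCm38), the ligand, had few reads in Control kidneys. Its TMM-scaled FPKM was 0.173, 0.171 and 0.0353 in Control replicates 2, 4 and 5, from 20, 20 and 4 reads. HN replicates 4, 8 and 12 reached 1.25, 1.83 and 1.37, and PEC replicates 1, 2 and 3 had 1.11, 1.09 and 1.43. All HN and PEC values were above all Control values, while HN and PEC overlapped. Tnf rose 11.6-fold in HN (log2 fold change 3.54 ± 0.49, SE; edgeR adjusted p = 0.000379) and was 9.47-fold above Control in PEC mice (log2 3.24 ± 0.49, edgeR adjusted p = 0.000583). Between PEC and HN the log2 difference was -0.30, with a 95% confidence interval from -1.27 to 0.68 and an edgeR adjusted p of 0.59. limma on log2(FPKM + 1) of the deposited values, which are not TMM-scaled, gave -0.32 with an adjusted p of 0.0487, and adjusted p over all alternatives ran from 0.0487 to 0.873.

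The receptors differed from each other. Tnfrsf1a (ENSMUSG00000030341, chr6:125349362-125361874, plus strand), which encodes TNFR1, was the most abundant of the 8 genes in every group. Its TMM-scaled FPKM was 29.5, 28.5 and 22.9 in Control replicates 2, 4 and 5, then 54.2, 47.2 and 45.8 in HN replicates 4, 8 and 12, and 41.4, 45.6 and 46.0 in PEC replicates 1, 2 and 3. HN and PEC libraries all stood above Control and overlapped with each other. Tnfrsf1a rose 1.82-fold in HN (log2 0.86 ± 0.11, SE; edgeR adjusted p = 0.000264) and 1.64-fold in PEC against Control (log2 0.72 ± 0.11, edgeR adjusted p = 0.000728). The PEC difference from HN was -0.15 on the log2 scale, with an interval from -0.40 to 0.11 (edgeR adjusted p = 0.302). It was -0.36 with library totals alone, where the median of all genes was -0.23, and past the threshold there (adjusted p = 0.0339, range over all alternatives 0.0267 to 0.668). It was also past it with limma (-0.372 and -0.378) and with the GC trend removed (-0.337), an alternative chosen after the data had been seen, where the median of all genes was 0.004.

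Tnfrsf1b (ENSMUSG00000028599, chr4:145213463-145246870, minus strand), which encodes TNFR2, separated all 3 groups. Control replicates 2, 4 and 5 had 1.93, 1.69 and 1.18 TMM-scaled FPKM, HN replicates 4, 8 and 12 had 11.9, 10.96 and 9.95, and PEC replicates 1, 2 and 3 had 5.73, 6.92 and 7.17. Every PEC library lay between the highest Control and the lowest HN library. Tnfrsf1b rose 6.81-fold in HN (log2 2.77 ± 0.19, SE; edgeR adjusted p = 8.19e-06). PEC mice were 1.65-fold below HN (log2 -0.73 ± 0.18, edgeR adjusted p = 0.0085), with all 3 libraries lower, and 4.12-fold above Control (log2 2.04 ± 0.18, edgeR adjusted p = 3.90e-05). All 3 calls held in each of the 19 alternative fits, where the PEC difference from HN ran from -0.95 to -0.63.

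Within single libraries, where scaling between libraries plays no part, the FPKM ratio of Tnfrsf1b to Tnfrsf1a was 0.0658, 0.0595 and 0.0515 in Control, 0.220, 0.233 and 0.218 with HN, and 0.139, 0.152 and 0.156 after PEC. The groups did not overlap in this ratio, and the HN value was 3.81-fold that of Control and the PEC value 1.5-fold below that of HN. With 3 mice against 3, the exact two-sided permutation test cannot go below p = 0.1, which all 3 comparisons reached (adjusted p = 0.3 over 9 tests).

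Fas (ENSMUSG00000024778, chr19:34290666-34327772, plus strand), a death receptor that binds FAS ligand, gave no call with TMM scaling. Its TMM-scaled FPKM was 3.79, 4.06 and 4.28 in Control replicates 2, 4 and 5, then 5.53, 3.94 and 3.50 in HN replicates 4, 8 and 12, and 4.41, 4.32 and 6.08 in PEC replicates 1, 2 and 3. HN replicate 4 and PEC replicate 3 were the highest, and the other libraries lay close together. HN overlapped with both other groups, while the PEC libraries were just above Control. No difference passed the test, the log2 fold changes being 0.10 for HN against Control (interval -0.37 to 0.56, edgeR adjusted p = 0.726), 0.19 for PEC against HN and 0.29 for PEC against Control. With library totals alone the first was 0.62 and the third 0.60, both past the threshold (adjusted p = 0.0228 and 0.0283, ranges over all alternatives 0.0228 to 0.994 and 0.0283 to 0.881), beside medians of all genes of 0.51 and 0.31. Both were also past it with limma. The second was then -0.02. Fasl, the gene of its ligand, was under the expression filter.

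**Figure D2:**
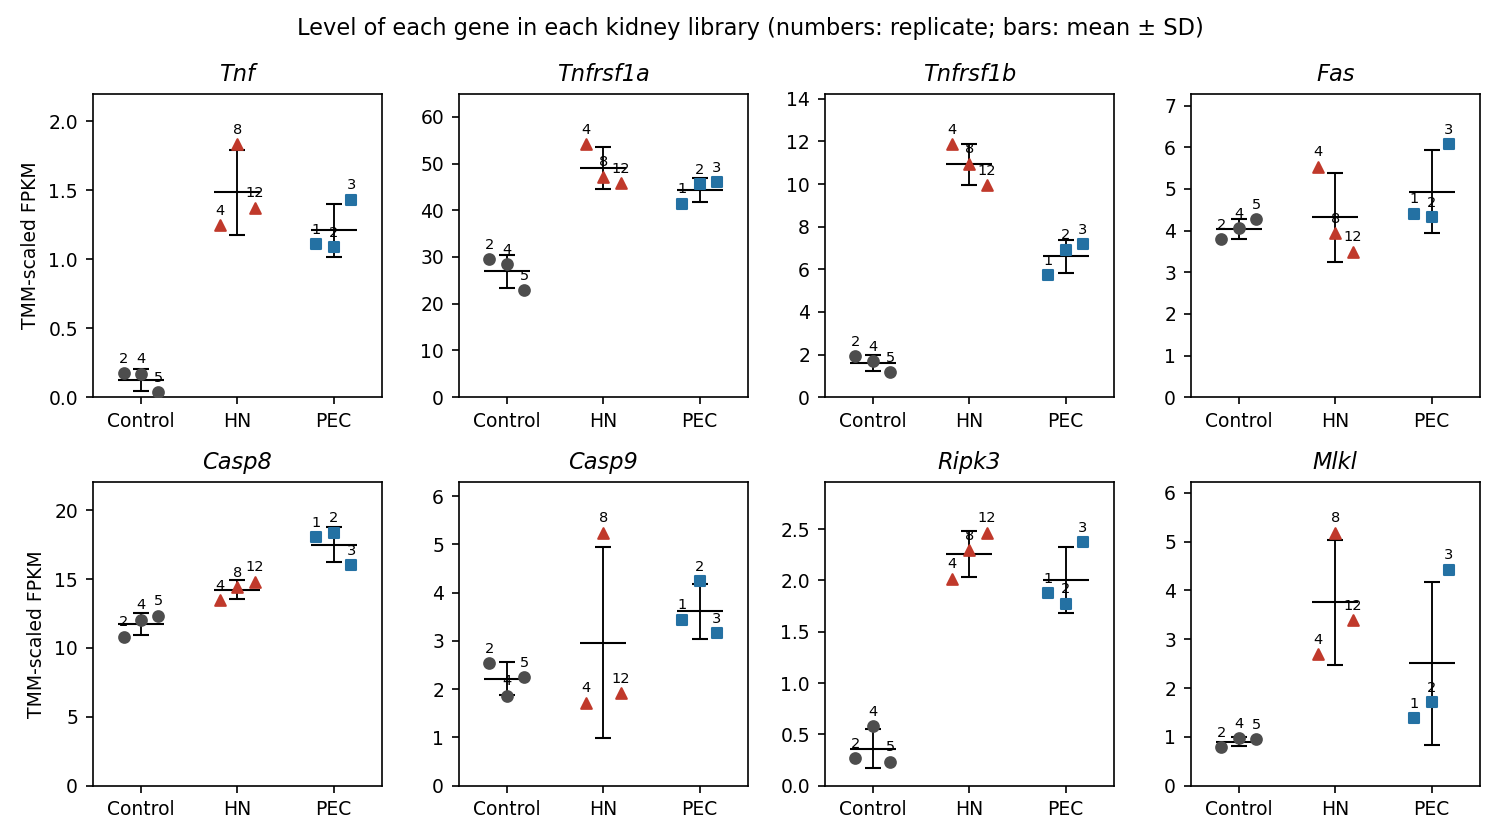
For each of the 8 genes by library, the vertical axes give TMM-scaled FPKM from 0, each point is a mouse with its replicate number, and bars give the group mean and SD of 3 mice. Tnfrsf1b steps down from HN to PEC without overlap, Tnf, Tnfrsf1a and Ripk3 stay high in both, and single libraries stand apart for Casp9 (HN replicate 8) and Mlkl (PEC replicate 3).

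Because Tnfrsf1b, Ripk3 and Mlkl rose with Tnf, and TNF and interferon signals reach genes through NF-kappaB, interferon-regulatory factors and STAT proteins, the start regions of the 8 genes were read for short versions of their motifs. The sequences are from RefSeq on GRCm38.p6, where all 8 genes were found. The RefSeq starts of Tnfrsf1a, Fas, Casp8, Ripk3 and Mlkl differ from the gene starts of the table, that of Casp8 by several kilobases. Matches were sought in windows of 300 bases with 250 before the start and 50 from it. The motifs were GGGNNNTTC for NF-kappaB, GAAANNGAA for interferon-regulatory factors and TTCNNNGAA for STAT proteins, searched on both strands, and no matches overlapped in the 8 windows. They occur in 14.0%, 8.6% and 8.3% of 32851 such windows. The 250 bases before the start are shown 5′ to 3′ for the receptor gene that separated the groups and for both necroptosis genes, with matches in capitals.
Tnfrsf1b (chr4:145246871-145247120, minus strand): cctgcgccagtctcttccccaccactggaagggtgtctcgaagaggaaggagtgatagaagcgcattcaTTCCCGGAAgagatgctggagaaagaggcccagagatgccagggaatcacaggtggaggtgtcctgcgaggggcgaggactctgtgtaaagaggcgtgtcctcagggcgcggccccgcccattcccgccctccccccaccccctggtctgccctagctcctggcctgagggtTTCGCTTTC
Ripk3 (chr14:55788858-55789107, minus strand): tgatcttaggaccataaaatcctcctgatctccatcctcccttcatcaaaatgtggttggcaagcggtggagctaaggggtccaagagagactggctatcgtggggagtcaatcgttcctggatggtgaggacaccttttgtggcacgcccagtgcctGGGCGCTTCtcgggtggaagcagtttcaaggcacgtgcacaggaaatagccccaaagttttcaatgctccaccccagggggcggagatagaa
Mlkl (chr8:111338206-111338455, minus strand): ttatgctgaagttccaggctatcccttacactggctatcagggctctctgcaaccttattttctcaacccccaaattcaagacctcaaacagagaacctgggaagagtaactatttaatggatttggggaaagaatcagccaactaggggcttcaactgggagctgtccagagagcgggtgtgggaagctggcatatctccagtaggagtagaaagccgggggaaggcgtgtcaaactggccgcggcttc
Counting the start base as 0, Tnfrsf1b had the STAT letters TTCCCGGAA from -181 and, directly before the start, the interferon-type letters TTCGCTTTC on the other strand from -9 to -1. Ripk3 had the NF-kappaB letters GGGCGCTTC from -92 and the interferon-type letters GAAAGGGAA from 14 after the start, outside the bases shown. The Mlkl window held none of the 3 motifs, as did those of Casp8 and Casp9. Of the remaining genes, Tnfrsf1a and Fas each had 1 STAT match and Tnf 1 NF-kappaB match just after its start. A match is a description of these letters only, and binding was not measured.

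Leukocytes carry TNFR2 and make TNF, so their markers are given beside these genes. Of 7 macrophage and monocyte markers, 7 were higher in HN than in Control, 5 of 7 were lower in PEC than in HN, and 5 of 7 were higher in PEC than in Control. Their summed TMM-scaled FPKM was 29.4, 30.0 and 31.5 in Control replicates 2, 4 and 5, then 595, 553 and 512 in HN replicates 4, 8 and 12, and 253, 257 and 300 (299.8) in PEC replicates 1, 2 and 3. Lyz2, encoding lysozyme, was the most abundant and made up most of the sum, and no marker of the list was at 0 in any library. Adgre1, the gene of the F4/80 antigen, was 13.7-fold above Control in HN and 4.13-fold lower in PEC than in HN. Cd68, of the lysosomes of macrophages, was 10.5-fold above Control in HN, and its log2 difference between PEC and HN was -0.17 (edgeR adjusted p = 0.613). The macrophage sum and Tnfrsf1b thus had the same order of groups, and the part of these cells in the result was not tested. In whole kidney, fewer cells of a type and less RNA per cell cannot be told apart.

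Casp8 (ENSMUSG00000026029, chr1:58795374-58847503, plus strand), the initiator caspase of death receptors, was highest with PEC. Its TMM-scaled FPKM was 10.8, 12.1 and 12.3 in Control replicates 2, 4 and 5, then 13.4, 14.4 and 14.8 in HN replicates 4, 8 and 12, and 18.1, 18.4 and 16.02 in PEC replicates 1, 2 and 3. The groups did not overlap and stood in the order Control, HN, PEC. Casp8 was 1.49-fold higher in PEC than in Control (log2 0.57 ± 0.09, SE; edgeR adjusted p = 0.000673), a call that held in each of the 19 alternative fits. The steps on either side of HN were smaller, 1.21-fold from Control to HN (log2 0.28 ± 0.09, edgeR adjusted p = 0.0293) and 1.23-fold from HN to PEC (log2 0.30 ± 0.09, edgeR adjusted p = 0.0213). Neither was firm. The first was lost without Control replicate 2 (0.22), Control replicate 4 (0.30), HN replicate 8 (0.27) or HN replicate 12 (0.24), and the second without HN replicate 4 (0.26), HN replicate 8 (0.31), PEC replicate 1 (0.28) or PEC replicate 2 (0.26). The first was also lost with no filter (0.263), with the length trend removed (0.133) or with the GC trend removed (0.19), and the second with no filter (0.25) or with the length trend removed (0.256). How the rise divides between the steps depended on the scaling. With library totals alone the first was 0.801 (adjusted p = 0.000102, range over all alternatives 0.000102 to 0.272), beside a median of all genes of 0.51. The second was then 0.08 and not called, and limma gave 0.059 and 0.062, not called either.

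Casp9 (ENSMUSG00000028914, chr4:141793612-141815976, plus strand), the initiator caspase of the mitochondrial route, gave no call. Control replicates 2, 4 and 5 had 2.54, 1.86 and 2.25 TMM-scaled FPKM, HN replicates 4, 8 and 12 had 1.72, 5.25 and 1.92, and PEC replicates 1, 2 and 3 had 3.44, 4.24 and 3.15. HN replicate 8 stood far above both other HN libraries, which overlapped with Control, and all PEC libraries were above Control. Its 2925 reads compare with 849 and 997 in the other HN libraries, and the cause of the gap was not tested. The log2 fold changes were 0.42 ± 0.39 (SE) for HN against Control, 0.29 ± 0.39 for PEC against HN and 0.70 ± 0.39 for PEC against Control (edgeR adjusted p = 0.41, 0.568 and 0.155). Without HN replicate 8 the first turned to -0.28, not called. The second became 0.99 (adjusted p = 0.00504, range over all alternatives 0.00504 to 0.984) and the third was 0.70 (adjusted p = 0.00786, range 0.00786 to 0.473). The third was also called when only the 2 groups compared were fitted (0.72). In that library, 178 of the 15508 tested genes (1.15%) were at least 2-fold above both other HN libraries, among them Zbp1 and Ly6c2. The same count was 138 in HN replicate 4 and 128 in HN replicate 12. The ratio of Casp8 to Casp9 within a library was 7.84, 2.74 and 7.71 in HN replicates 4, 8 and 12 and 4.28 to 6.49 in Control mice, and PEC mice had 4.33 to 5.24. All groups overlapped, and the exact permutation p was 1 for HN against Control, 1 for PEC against HN and 0.5 for PEC against Control (adjusted p = 1, 1 and 0.643).

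Ripk3 (ENSMUSG00000022221, chr14:55784995-55788865, minus strand), the kinase of necroptosis, was scarce in Control and rose in every HN and PEC mouse. Its TMM-scaled FPKM was 0.270, 0.578 and 0.232 in Control replicates 2, 4 and 5, from 44, 95 and 37 reads. HN replicates 4, 8 and 12 had 2.02, 2.29 and 2.47, and PEC replicates 1, 2 and 3 had 1.87, 1.77 and 2.37. HN and PEC libraries all lay above Control and overlapped with each other. Ripk3 was 6.26-fold above Control in HN (log2 2.65 ± 0.35, SE; edgeR adjusted p = 0.000261) and 5.56-fold in PEC (log2 2.48 ± 0.34, edgeR adjusted p = 0.000369). Between PEC and HN it was -0.17 with an interval from -0.90 to 0.56 (edgeR adjusted p = 0.682), which leaves room for a change of either sign.

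Mlkl (ENSMUSG00000012519, chr8:111311797-111338177, minus strand), which encodes the membrane-rupturing protein, rose in HN, and PEC mice split. Control replicates 2, 4 and 5 had 0.788, 0.971 and 0.950 TMM-scaled FPKM, HN replicates 4, 8 and 12 had 2.69, 5.18 and 3.39, and PEC replicates 1, 2 and 3 had 1.38, 1.71 and 4.42. PEC replicates 1 and 2 were below every HN library, PEC replicate 3 was above all HN libraries but replicate 8, and all PEC libraries were above Control. Mlkl rose 4.16-fold in HN (log2 2.06 ± 0.45, SE; edgeR adjusted p = 0.00475) and was 2.77-fold above Control in PEC (log2 1.47 ± 0.44, edgeR adjusted p = 0.0201). The latter call was lost without Control replicate 2, where the log2 fold change was 1.38. PEC against HN gave -0.59 ± 0.43 (edgeR adjusted p = 0.284). Without PEC replicate 3 it was -1.26 and past the threshold (adjusted p = 0.0101, range over all alternatives 0.0101 to 0.653), and PEC against Control was then 0.79. The ratio of Mlkl to Ripk3 within a library was 3.05, 1.71 and 4.22 in Control, 1.33, 2.25 and 1.37 with HN, and 0.730, 0.961 and 1.86 after PEC. These ranges overlapped between all groups, and the exact permutation p was 0.2 for HN against Control, 0.3 for PEC against HN and 0.2 for PEC against Control (adjusted p = 0.36, 0.45 and 0.36).

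PEC replicate 3 also stood apart more widely, with 449 of the 15508 tested genes (2.9%) at least 2-fold above both other PEC libraries, against 156 in replicate 1 and 176 in replicate 2. Zbp1, a nucleic acid sensor that can engage RIPK3 and is known as an interferon-induced gene, had the sample pattern of Mlkl. Its TMM-scaled FPKM was 2.95, 8.63 and 3.38 in HN replicates 4, 8 and 12 and 1.06, 1.58 and 8.23 in PEC replicates 1, 2 and 3, over 0.490, 0.880 and 0.558 in Control. The genes most like Mlkl over the 9 libraries were Oas1a (Pearson r of log2 CPM 0.995), an interferon-induced antiviral gene, and Lgals9 (r 0.994), which encodes galectin-9. Oas1a had 10.9, 32.4 and 14.1 in HN replicates 4, 8 and 12 and 3.46, 4.75 and 34.2 in PEC replicates 1, 2 and 3. Mlkl, Zbp1 and Oas1a were thus all highest in HN replicate 8 and PEC replicate 3. Ripk3 was highest in HN replicate 12 (2.47, against 2.29 in replicate 8) and PEC replicate 3 (2.37, against 1.87 in replicate 1). Ly6c2 and S100a9, markers of myeloid cells, and Lcn2, of injured tubule, were also at least 2-fold above both other PEC libraries in replicate 3. No other tested marker of these lists was. Adgre1, Cd68, Csf1r, Lyz2, S100a8 and Csf3r were highest in that library by less. Havcr1 (128), Krt20 (11.8) and Vcam1 (16.7) were lowest of the PEC group there, and Sox9 (2.56) was intermediate. Ptprc (0.812) and Itgam (2.80) were below PEC replicate 2 (2.01 and 5.47). The part of these markers in the split of Mlkl was not tested. Total counts were largest in HN replicate 8 (81069646) and smallest in PEC replicate 3 (57714111), and the part of either library's quality or batch in this pattern was not tested.

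**Figure D3:**
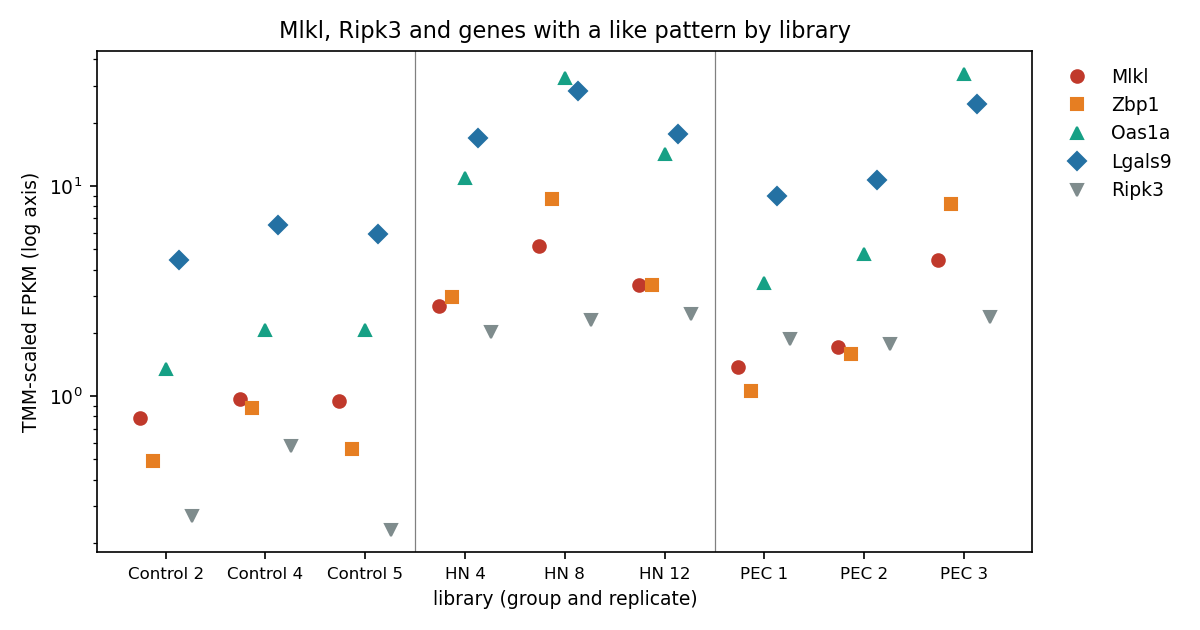
For Mlkl, Ripk3 and genes with the sample pattern of Mlkl, the vertical axis gives TMM-scaled FPKM on a log scale, the horizontal axis each library by group and replicate, and each symbol a gene. Mlkl, Zbp1, Oas1a and Lgals9 are highest of their groups in HN replicate 8 and PEC replicate 3. Ripk3 is highest of its groups in HN replicate 12 and PEC replicate 3.

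The other genes had different nearest patterns by the same measure over 9 libraries. This r takes in differences between the 3 groups as well as those within them. Tnf was most like Milr1 (r 0.993) and Ncf4 (0.991), the latter encoding a subunit of the phagocyte NADPH oxidase. Tnfrsf1a was most like Map7d1 (0.993) and Ptgir (0.992), the prostacyclin receptor gene. Tnfrsf1b was most like Slc11a1 (0.997), a metal transporter of macrophage phagosomes, and Elf4 (0.997), a transcription factor. Fas was nearest to Lsg1 (0.940) and Tbc1d20 (0.931), Casp8 to Misp (0.974) and Kng1 (0.967), and Casp9 to Arv1 (0.881) and Psmd8 (0.867). Ripk3 was nearest to Mybpc2 (0.991) and Cpne8 (0.991).

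The order of the levels differed between groups. In Control, mean TMM-scaled FPKM (± SD, n = 3) was highest for Tnfrsf1a (27.0 ± 3.54), followed by Casp8 (11.7 ± 0.809), Fas (4.04 ± 0.246), Casp9 (2.22 ± 0.338), Tnfrsf1b (1.60 ± 0.383), Mlkl (0.903 ± 0.0999), Ripk3 (0.360 ± 0.190) and Tnf (0.127 ± 0.0790), and of these neighbours only Casp9 and Tnfrsf1b overlapped. In HN the order was Tnfrsf1a (49.0 ± 4.48), Casp8 (14.2 ± 0.698), Tnfrsf1b (10.9 ± 0.962), Fas (4.32 ± 1.07), Mlkl (3.76 ± 1.28), Casp9 (2.96 ± 1.98), Ripk3 (2.26 ± 0.226) and Tnf (1.48 ± 0.310). Tnfrsf1b was thus below Fas and Casp9 in Control and above both in HN, and the ranges of Fas, Mlkl, Casp9 and Ripk3 overlapped from each to the next. PEC mice had Tnfrsf1a (44.3 ± 2.54), Casp8 (17.5 ± 1.28), Tnfrsf1b (6.61 ± 0.772), Fas (4.93 ± 0.990), Casp9 (3.61 ± 0.564), Mlkl (2.5 ± 1.67), Ripk3 (2.01 ± 0.322) and Tnf (1.21 ± 0.193). Here Tnfrsf1b overlapped with Fas, Casp9 with Mlkl and Mlkl with Ripk3.

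A wider list of 63 genes of these pathways, which includes the 8, had 58 genes above the filter. In HN against Control, 30 of the 58 were higher and 4 lower, with a median log2 fold change of 0.43 (0.35 over the 50 without the 8 genes) beside -0.01 over all tested genes. In PEC against HN, 9 were higher and 18 lower, with a median of -0.20 (-0.23 without the 8). In PEC against Control, 28 were higher and 14 lower, with a median of 0.48 (0.23 without the 8). The shares of all tested genes given above are the background of these counts and of those by role, which come from few genes and were not tested against it. The filter took the mean over 9 libraries, so genes whose deposited FPKM averaged under 0.5 in Control passed it through libraries in which they were high. Among the pathway genes named below these were Ltb, Tnfrsf10b, Ngfr, Cd40, Traf1, Casp1 and Naip5 (through HN and PEC), Tnfsf15 and Tnfrsf11b (through HN) and Tnfrsf25 (through PEC). Fold changes of PEC against HN also went with gene length (Spearman -0.332 over all tested genes) and GC content (0.21). Those of PEC against Control did so too (-0.212 and 0.258), against 0.071 and 0.064 for HN against Control. A difference in how the PEC libraries were made cannot be told apart from the group.

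Among TNF superfamily ligands, 4 of 5 tested genes were higher in HN, from Tnfsf12 (log2 0.88), the gene of TWEAK, to Ltb (4.02), which encodes lymphotoxin beta. Tnfsf15 (-3.28), the gene of TL1A, and Ltb (-1.06) were lower in PEC than in HN by edgeR, and all 5 with limma. Tnfsf15 was also below Control with PEC (-1.35), as was Tnfsf10 (-0.98), the TRAIL gene, while Tnf, Ltb and Tnfsf12 stayed higher, the last not with the length trend (0.336) or the GC trend (0.315) removed. The Ltb call against HN was lost without HN replicate 8 (-0.77) or PEC replicate 1 (-0.96). The call of Tnfsf15 against Control was lost in 7 of the 9 fits without 1 mouse, those without Control replicates 4 and 5, any HN mouse, or PEC replicates 2 and 3 (-1.39 to -0.94). It was also lost with library totals alone (-1.037) and limma (-0.271 and -0.907). The call but not the size was lost with no filter (-1.408) or a mean FPKM of at least 1 (-1.313). The same held with only the 2 groups compared (-1.332), and the GC trend removed gave -1.143 without a call. Lta and Fasl were under the filter.

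Receptors with a death domain were higher in HN in 3 of 6 cases, namely Tnfrsf10b (log2 1.61), the TRAIL receptor gene, Ngfr (1.51) and Tnfrsf1a. Tnfrsf25, the receptor gene for TL1A, was higher in PEC than in HN (1.122). Against Control, 4 were higher with PEC, the most for Ngfr (1.47), and Tnfrsf21 was lower (-0.76). The Tnfrsf21 call was lost without Control replicates 4 or 5 or PEC replicates 1 or 3 (-0.81 to -0.51). It was also lost with library totals alone (-0.459), limma (-0.539 and -0.546) or only the 2 groups compared (-0.734). Tnfrsf25, among the 4, was lost in 7 of the 9 fits without 1 mouse (0.634 to 0.83). Those fits lacked Control replicates 2 or 5, any HN mouse, or PEC replicates 1 or 3. It was also lost with no filter (0.767), only the 2 groups compared (0.846), or the length (0.6) or GC trend (0.542) removed. Of 5 receptors without a death domain, Tnfrsf11b (3.26), the gene of the decoy receptor osteoprotegerin, Tnfrsf1b and Cd40 (2.20) were higher in HN. Tnfrsf11b fell by 2.41 with PEC against HN, and Cd40 remained 1.98 above Control.

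Adaptors and ubiquitin machinery of the receptor complexes were higher in HN for 6 of 18 genes by edgeR, where 24.4% of all tested genes were, and for 12 with limma on values without TMM scaling. Birc3 (log2 2.47), which encodes the ubiquitin ligase cIAP2, led them, followed by Traf1 (2.45) and Tnfaip3 (1.90), the gene of the brake protein A20. Rnf31 (0.44), of the linear ubiquitin ligase, was the smallest, and was lost without HN replicate 8 (0.38) and with the length trend (0.29) or the GC trend (0.288) removed. Against HN, 7 genes were lower with PEC, the most for Ikbkg (-1.38), which encodes NEMO, and Cyld (-1.14), a deubiquitinase gene, and 3 of 18 were higher (24.3% of all tested genes), the most for Sharpin (0.68). Of the 7 lower, Ikbkg alone was called in every alternative fit, and the Cyld call was lost with the length trend removed (-0.629). Against Control, PEC kidneys had 8 of 18 higher, the most for Traf1 (2.86), and 4 lower, including Ikbkg (-1.29), Cyld (-1.26) and Cflar (-1.18), the gene of the caspase-8 inhibitor FLIP, the last lost with the length trend removed (-0.792). Ikbkg and Cyld did not differ between HN and Control by the test (0.09 and -0.12).

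Among the other caspases, Casp2 (log2 0.87) was the further initiator that rose in HN, and it was lower in PEC than in HN (-1.22). The inflammatory and other caspases Casp12 (2.51), Casp4 (2.47) and Casp1 (2.39) were all higher in HN. Casp12 (-1.34) and Casp4 (-0.81) were lower in PEC than in HN, the latter not without HN replicates 4, 8 or 12 or PEC replicates 1 or 2 (-0.93 to -0.69), nor without a filter (-0.864) or with the GC trend removed (-0.279). All 3 remained above Control, from Casp12 (1.17) to Casp1 (1.72).

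Of 7 genes of the mitochondrial route, 1 was higher in HN by edgeR at the adjusted threshold, Apaf1 (log2 1.25), the scaffold that activates caspase-9, against 2 at an unadjusted p of at most 0.05, 2 with DESeq2 and 3 with limma. Control replicates 2, 4 and 5 had 0.756, 0.835 and 0.950 TMM-scaled FPKM of it, HN replicates 4, 8 and 12 had 1.70, 2.27 and 2.06, and PEC replicates 1, 2 and 3 had 0.268, 0.411 and 0.275. Every PEC library was below every Control library, and every HN library above (PEC against HN -2.66 ± 0.21, SE, edgeR adjusted p = 4.37e-05; PEC against Control -1.41). Cycs (-1.20), the cytochrome c gene, Aifm1 (-1.11), Endog (-1.09) and Bid (-1.28), which links caspase-8 to mitochondria, were lower in HN. Bid (0.49), Htra2 (0.46), Cycs (0.44) and Aifm1 (0.31) were higher in PEC than in HN, but the Htra2 call was lost without HN replicates 4 or 12 or PEC replicate 3 (0.41 to 0.44) and that of Cycs without HN replicates 4 or 8 (0.41 in both). With library totals alone or limma, only the call of Bid held among these 4. Without a filter those of Htra2 (0.408) and Aifm1 (0.263) were lost. Against Control, Htra2 (0.83) was higher with PEC and 5 genes were lower.

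Of the genes listed as inhibitors of apoptosis, all 3 tested were higher in HN, from Xiap (log2 0.33), which blocks caspase-9, to Naip5 (1.84). The Naip genes are listed by family name, and whether they inhibit apoptosis here was not tested. The Naip genes are close copies of each other whose reads may be split, so their values are uncertain. Xiap had 8.08, 8.61 and 8.10 TMM-scaled FPKM in Control, 10.5, 10.7 and 9.91 with HN, and 5.27, 5.30 and 4.99 after PEC. No groups overlapped, and PEC lay below both others (-0.999 against HN, edgeR adjusted p = 2.65e-05, and -0.67 against Control). The call against Control was lost when the trend with GC content was removed (-0.09). Naip2 was lower in PEC than in HN (-0.88), and Naip5 (1.69) remained above Control.

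Necroptosis genes were higher in HN for 3 of 5, from Mlkl to Zbp1 (log2 2.95). No gene of the list was called between PEC and HN by edgeR. At an unadjusted p of at most 0.05, with DESeq2 and with limma, 0 were higher and 1 was lower. Against Control, Zbp1 (2.49), Ripk3 and Mlkl were higher with PEC and Pgam5 (-0.98), of a mitochondrial phosphatase, was lower. The Zbp1 call in HN was lost without Control replicate 2 (2.79) or 5 (2.86), and that in PEC without Control replicate 2 (2.33), Control replicate 5 (2.4) or PEC replicate 3 (1.05), and with limma at a pseudocount of 1 (1.261). Pgam5 was lost without any Control mouse or PEC replicates 1 or 3 (-1.002 to -0.72), and with library totals alone (-0.678) or only the 2 groups compared (-0.953).

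**Figure D4:**
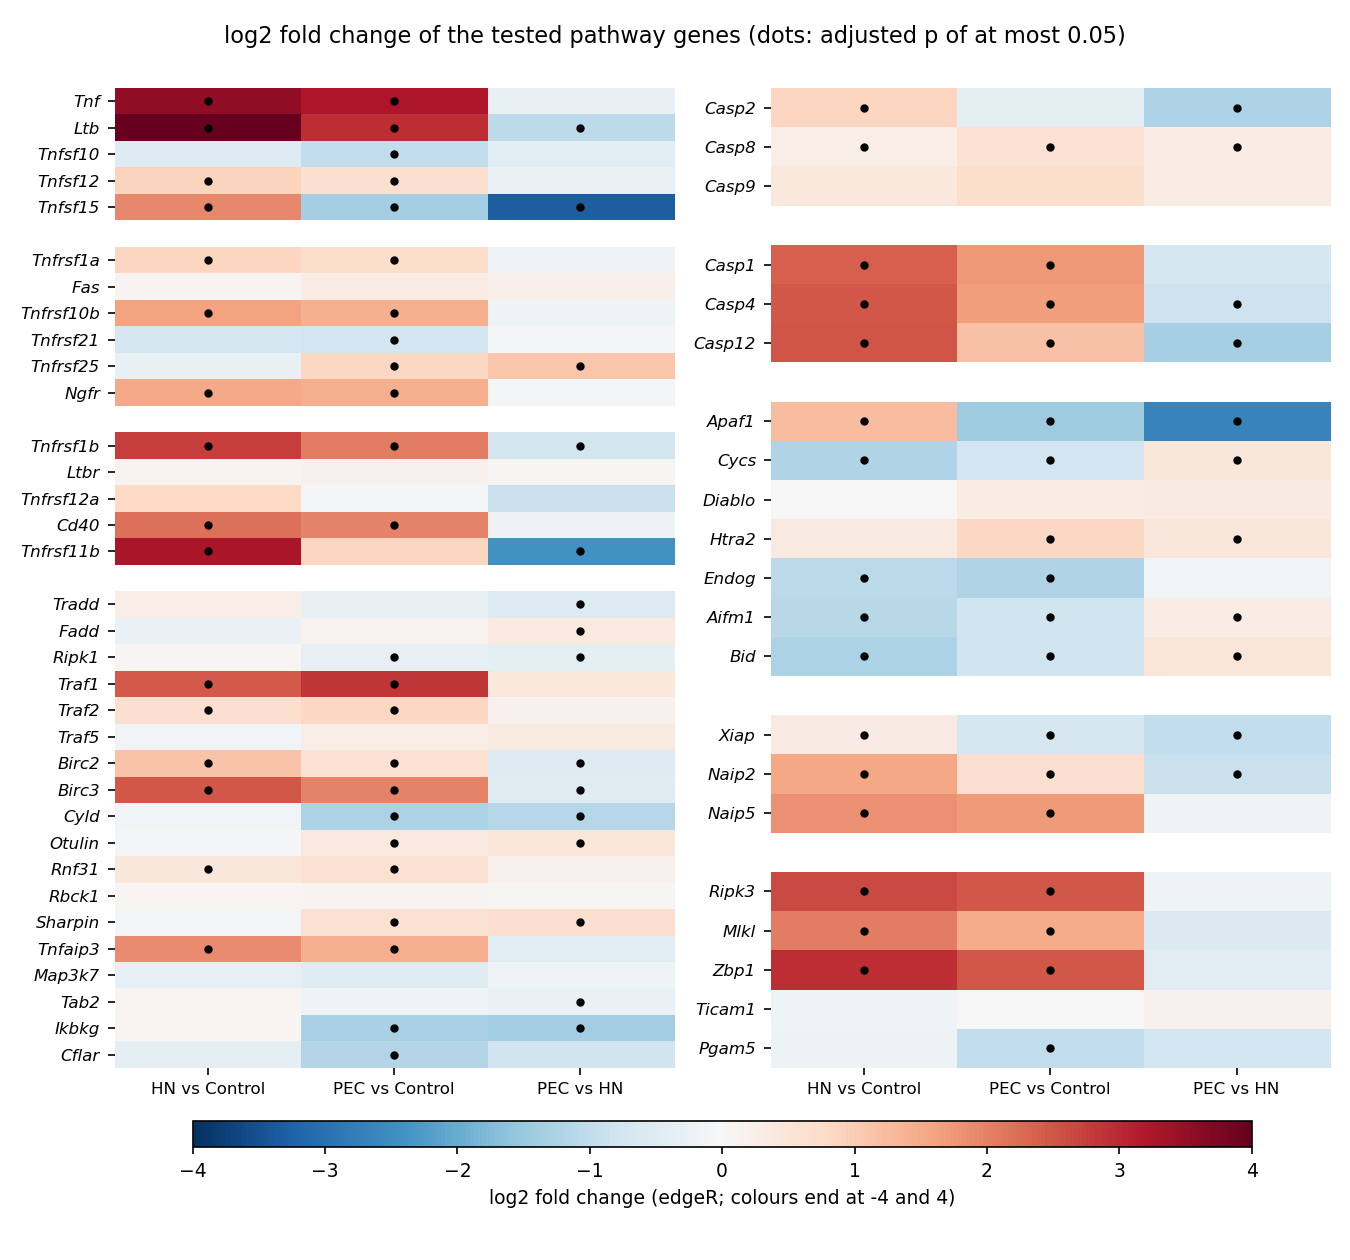
For tested pathway genes in blocks by role, without those not reported, columns are the comparisons, colour gives the log2 fold change from edgeR between -4 and 4, and dots mark an adjusted p of at most 0.05. Apaf1 and Tnfsf15 are red (higher) in HN vs Control and blue (lower) in both PEC comparisons, and the inflammatory caspases are red in both comparisons with Control.

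Several but not all lists of markers of other kidney cell types also differed between these groups, and their part in the results above was not tested. By edgeR, all 5 proximal tubule markers were lower in HN than in Control, higher in PEC than in HN and lower in PEC than in Control. With limma on values without TMM scaling, 3 were higher in PEC than in HN and 4 were lower in PEC than in Control. Slc5a2 overlapped between PEC and HN libraries. Their summed TMM-scaled FPKM was 1257, 1272 and 1437 in Control replicates 2, 4 and 5, then 299, 290.2 and 291 in HN replicates 4, 8 and 12, and 660 (659.7), 771 and 467 in PEC replicates 1, 2 and 3, with Slc34a1 most abundant. All 5 markers of injured tubule, of which Havcr1, the KIM-1 gene, had the highest mean in HN and PEC, were higher in HN and in PEC than in Control. Their sums were 7.26, 6.47 and 3.62 in Control, 464, 458 and 438 with HN, and 321, 350 (349.6) and 367 after PEC, where 2 of 5 were lower than in HN. Cycs, Aifm1, Endog and Bid were also lower in HN than in Control, but Endog was not called between PEC and HN (log2 -0.10, edgeR adjusted p = 0.547). Any link of these genes to the proximal tubule markers was not tested.

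Of 7 markers of T and NK cells, 6 were tested and 6 were higher in HN and in PEC than in Control, and 1 was lower in PEC than in HN by edgeR, against 3 at an unadjusted p of at most 0.05, 3 with DESeq2 and 4 with limma. Of the 6, Cd3e, Cd3g, Cd4 and Cd8a averaged under 0.5 deposited FPKM in Control and passed the filter through libraries in which they were high, as did Itgam, Sox9 and Csf3r of the other lists, so that the filter favours counts of higher markers. The sums were 3.25, 3.88 and 2.54 in Control replicates 2, 4 and 5, then 11.3, 18.2 and 13.3 in HN replicates 4, 8 and 12, and 8.66, 10.8 and 11.7 in PEC replicates 1, 2 and 3, with Trac most abundant and Klrb1c at 0 in 1 Control library. All 5 fibroblast and myofibroblast markers were higher in HN, 3 were lower in PEC than in HN, and the sums were 46.6, 45.2 and 41.5 in Control, 177, 175 and 161 with HN, and 121, 132 and 115 after PEC, with Acta2 most abundant in Control and PEC and Col1a1 in HN. B and plasma cell markers were above the filter for 2 of 5, of which Jchain was higher in HN and lower in PEC than in HN. Of 5 neutrophil markers, 3 were tested and Csf3r was higher in HN and in PEC than in Control, while the defining Ly6g and Mpo were at 0 in all Control libraries and had at most 8 reads elsewhere.

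Of the remaining kidney cells, 2 of 3 markers of thick limb and distal tubule and 3 of 3 of collecting duct were lower in HN than in Control, and 1 and 2 of them were higher in PEC than in HN. Of 4 endothelial markers, 1 was higher and 1 lower in HN, and 1 was higher in PEC than in HN. These counts are from edgeR. In HN against Control, limma called 1 thick limb and distal tubule marker higher and 1 lower. It called 1 collecting duct marker lower, and 2 endothelial markers higher and 0 lower. In PEC against HN, it called 1 thick limb and 1 collecting duct marker higher, and 0 endothelial markers higher and 2 lower. By edgeR, 0 of 3 podocyte markers were called in HN against Control, and 1 was higher in PEC than in HN. For that count of 0 edgeR was used, and it was also 0 at an unadjusted p of at most 0.05 and with DESeq2, but 3 were higher with limma, which ran on values without TMM scaling.

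**Figure D5:**
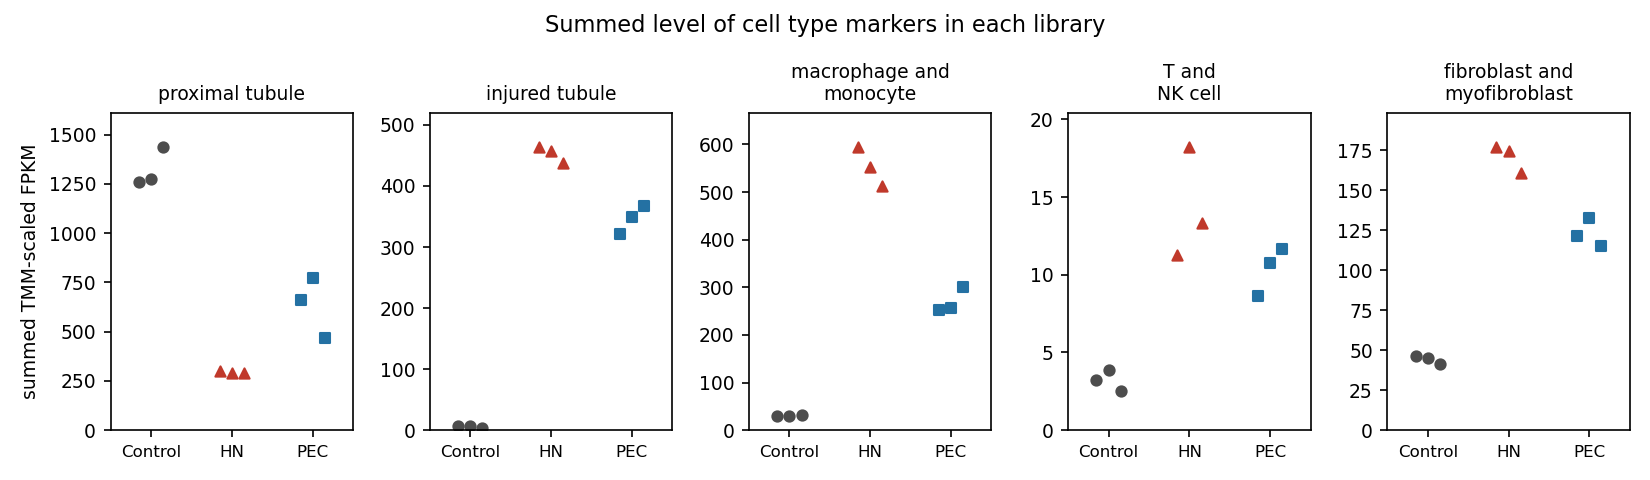
For 5 marker lists, the vertical axes give the sum of TMM-scaled FPKM over a list from 0, and each point is a mouse. HN libraries are lowest for proximal tubule and highest for injured tubule, macrophage and fibroblast markers, and PEC libraries lie between HN and Control for these. For T and NK cells, PEC libraries overlap with HN. Every list except proximal tubule stays above Control with PEC.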

How the data were processed

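Kidney poly(A) RNA of 9 mice was analysed from 1 table. The authors deposited whole-number counts of reads per gene, not normalized, and FPKM values, which they computed from counts, gene lengths and library totals. Per the labels' processing notes, Bowtie 0.12.2 and the builds mm8 and mm9 were used, but the coordinates of the table matched GENCODE M21 on GRCm38 for 51991 of 55144 shared genes and were read as GRCm38. The counting program is not given in the sources used here, nor whether it used strand. Genes that overlap Fas, Casp8, Casp9 and Mlkl had at most 65 reads in any library. Replicates of a group differed well beyond counting noise (chi-square per degree of freedom of at least 75.2), and no library was a copy of another.

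Counts were tested with edgeR 4.0.16 (glmQLFit and glmQLFTest) in R 4.3.3, in 1 fit of 9 libraries with TMM factors. A fold change is a ratio of fitted group means, and SE is the log2 fold change over the square root of F. Alternatives used DESeq2 1.42.0, limma 3.58.1, other scalings, filters and call rules, a loess removal of the trend with gene length or GC content (span 0.5), and omission of each mouse. The scripts were tested on simulated data. Ratios of FPKM within a library were compared by exact permutation tests. Likeness was Pearson's r of log2 CPM, the counts scaled to a common library size (prior count 2), without genes named Gm plus digits or ending in Rik. Named were the 8 genes, and from each pathway list that is reported at least the largest and smallest log2 fold change that passed. A few genes of the wider list and of the markers are counted but not reported. Genes, lists and markers were chosen with earlier results of these data known.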

Additional observations from a re-analysis of the deposited data

How the results depend on the processing

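Of 504 values of the 8 genes under alternatives, 460 kept their direction and side of the threshold, 23 lost the call, 15 gained it and 6 turned in sign. No paired analysis was possible because the replicate numbers come from different mice and each comparison shares fewer than 2 of them. Causes of the changes were not tested.

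Members higher in PEC than in HN numbered 1, and 0 with library totals alone, limma on log2(FPKM + 1) or log2(FPKM + 0.1), no filter, the length trend removed, the study's rule, or a 1.5-fold minimum (0 to 1 without 1 mouse). Members lower numbered 1, but 2 with library totals alone, 3 and 2 with limma (pseudocounts 1 and 0.1) and 2 with the GC trend removed, an alternative chosen after seeing the data (1 to 2 without 1 mouse). In the wider list, 9 were higher in PEC than in HN, but 3 with library totals alone and with limma at either pseudocount, 5 without a filter, and 2 under the study's rule or a 1.5-fold minimum (5 to 9 without 1 mouse). In HN, 4 were lower than in Control, but 7 with the length trend and 8 with the GC trend removed (4 to 6 without 1 mouse). Fas reversed to -0.002 in HN against Control with the length trend removed, and to -0.021, -0.029 and -0.033 in PEC against HN with library totals alone and limma at pseudocounts 1 and 0.1. Without 1 mouse, HN against Control ran from -0.12 to 0.23 for Fas and from -0.28 to 0.69 for Casp9. The log2 ratio of Casp8 to Casp9 ran from -0.22 to 0.54 in HN against Control, from -0.68 to 0.082 in PEC against HN and from -0.295 to 0.006 in PEC against Control.

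Over all tested genes, HN against Control gave 3780 higher and 3973 lower, but 8236 and 1592 with library totals alone, 8106 and 1690 with limma at pseudocount 1, and 8073 and 1682 at 0.1. PEC against HN gave 3767 higher, but 2418 with library totals alone and 2433 with limma at 0.1, and 3971 lower, but 6103 with limma at 1. PEC against Control gave 4350 higher and 4440 lower, but 6559 and 2690 with library totals alone, and 2896 and 2936 lower with limma at 1 and 0.1.

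Of the wider-list calls, 27 of 30 higher in HN, 10 of 18 lower in PEC than in HN and 3 of 9 higher in PEC than in HN held in every alternative fit that tested the gene. With 3 mice a group, intervals of Tnf, Ripk3 and Mlkl between PEC and HN are wide, and the Control levels of Tnf and Ripk3 rest on at most 95 reads.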
